A study of Arabidopsis thaliana with 54 samples.

Results

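In rosettes of Arabidopsis thaliana moved to 4 °C, 150 genes stood highest after 12 h and had come down again by 24 h. They were chosen by their own time course. CPM values (the count of a gene divided by the total of its library, times 1000000) were taken as log2(CPM + 1) and averaged over the 9 libraries of each time. A gene was kept if its 12 h mean was the highest of 6 times and stood at 5 CPM or more on that scale, which 1286 of 36632 genes did. These were ranked by the drop from the 12 h mean to the higher of the 0 h and 24 h means, and the top 150 were taken. The drop ran from 2.87 to 0.55 log2 units. The last 2 genes inside were AT1G12845 at 0.549 and AT3G24760 at 0.547, and the nearest outside were AT3G54400 and AT5G44565, both at 0.545. Of the 150, 149 are protein-coding genes and 1 (AT1G46554) is a noncoding RNA. All 150 passed the filter on low counts that left 20720 genes for testing.

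The plants were Col-0, grown in soil at 20 °C by day and 16 °C by night, at the end in a day of 16 h. Each of the 54 libraries holds RNA of whole rosettes, pooled from 5 samples. There are 3 conditions, each sampled before the move (0 h), at 2, 4 and 6 h, at 12 h and at 24 h, in 3 independent experiments (Exp1 to Exp3). C28P plants met 4 °C at 28 days of age, never having been cold before. C35P plants met it at 35 days, also for the first time, and serve as the control for age. C28PLT plants had 3 days at 4 °C from 28 days on, then 7 days of warm growth, and were then cooled again. In all 3 conditions the cold came with dimmer light, 90 µmol where warm plants had 200 µmol. No warm plants were sampled beside 2 to 12 h, and 24 h is the one time that shares its time of day with 0 h. Cold, dimmer light and time of day therefore cannot be told apart in the rise and fall described here. In whole rosettes a change in the number of cells of a type and a change of RNA per cell cannot be told apart either.

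Leaves in the cold rebuild their metabolism over hours, and the CBF transcription factors that start the best-known part of this programme come and go early. The plant clock runs through it as well. Its evening genes are held down in the morning by the related factors CCA1 and LHY, which bind a short promoter sequence called the evening element, while their relatives of the RVE8 type activate through the same sequence. Flavonols and other phenylpropanoids, made from phenylalanine, are stored as sugar conjugates and are a well-known product of leaves in cold and light.

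Library totals ran from 23408399 to 34452480 counts. The tissue label fits its leaf and root hair markers. RBCS1A, a small subunit of Rubisco, ran from 22395 to 44104 CPM. The root hair genes COBL9, EXPA7 and PRP3 had a median of 0 CPM and RHD2 of 0.0495 CPM. Some other listed markers were not at 0. The nitrate transporter gene NRT2.1, known from roots, had a median of 2.51 CPM, and the flower genes AP1 and AG of 1.02 and 0.902 CPM. The C28P 0 h library of Exp1 stood apart from the other 8 libraries of 0 h. In it the clock genes PRR5 and TOC1 were at 75.9 and 27.6 CPM, against 0.937 and 4.85 CPM in the C28P 0 h library of Exp2 and 0.854 and 2.35 CPM in that of Exp3. Over the other 8 libraries PRR5 ran from 0.171 to 1.47 CPM and TOC1 from 2.17 to 8.12 CPM. The clock gene CCA1, at 88.7 CPM in this library, lay within the range of those 8, 27.8 to 124 CPM. It also held the highest 0 h value for 63 of the 150 genes (42.0%), against 18.4% of the 11474 genes with a mean of at least 5 CPM at 0 h. The comparisons of C35P with C28P that use this library are given with and without it.

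As a group the 150 genes rose step by step to 12 h. Their median log2(CPM + 1) was 3.11 at 0 h, 3.60 at 2 h, 4.37 at 4 h, 4.65 at 6 h, 5.17 at 12 h and 4.35 at 24 h. The rise from 0 to 12 h had a median of 1.96 log2 units and ran from 0.59 to 6.12, and the fall from 12 to 24 h had a median of 0.79 and ran from 0.55 to 2.87. These values chose the genes and are given as a description, with no test. By 2 h the median gene had made 22.7% of its rise (on the log2 scale), by 4 h 55.5% and by 6 h 78.9%. At 24 h 57.5% of the rise was left, and 142 of the 150 genes were still above their 0 h mean.

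**Figure D1:**
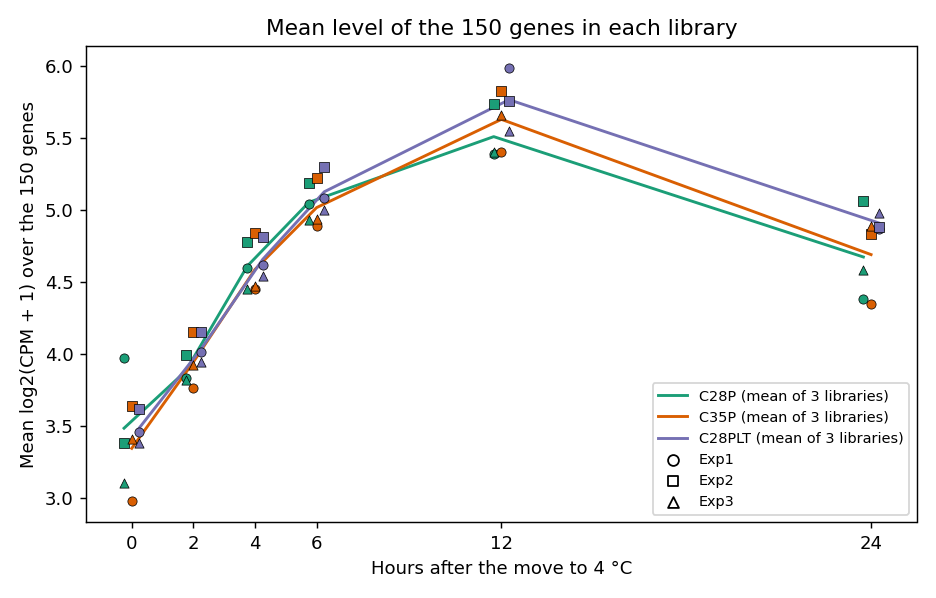
Mean log2(CPM + 1) over the 150 genes (y axis) in each of the 54 libraries against hours after the move to 4 °C (x axis). Colours are conditions, symbols are experiments and lines join the means of 3 libraries. In each of the 9 courses the 12 h library is the highest, and at 0 h the C28P library of Exp1 sits at 3.97, above the other 8, which lie between 2.98 and 3.64.

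A course here is 1 condition in 1 experiment, so there are 9. The 12 h library was the highest of the 6 in all 9 courses for 32 genes and in at least 7 courses for 86. It was above both the 0 h and the 24 h library in all 9 courses for 87 genes. By condition means, 12 h was the top time in all 3 conditions for 100 genes, in 2 of 3 for 46 and in 1 of 3 for 4. Where it was not, 6 h was the most frequent top time, for 27 genes in C28P, 9 in C35P and 4 in C28PLT. In C28PLT the top time was 24 h for 3 genes, 2 h for 1 and 0 h for 1, and in C28P it was 4 h for 7. The mean over the 3 conditions also set the membership, so these counts describe how even the courses were and test nothing.

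The genes reached their peak by different routes. By 6 h 70 genes had made at least 80% of their rise, 54 had made 50 to 80%, and 26 had made under 50%. In 8 of those 26, the 6 h mean was at or below the 0 h mean, so the whole rise fell between 6 and 12 h. The early group held the RNA-binding protein gene CCR1 (also GRP8) and the splicing factor gene RS40, the late group MAPKKK18, MYB90 and the arogenate dehydratase genes ADT4 and ADT6.

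**Figure D2:**
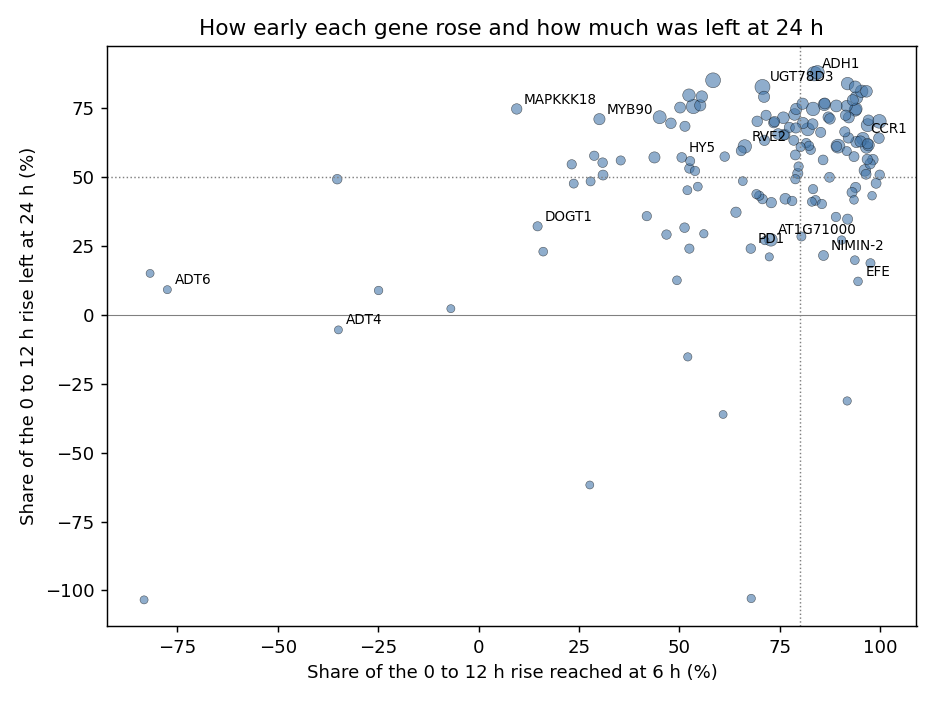
Each point is 1 gene. The x axis is the share of its 0 to 12 h rise, in log2(CPM + 1), reached at 6 h, the y axis is the share left at 24 h, and larger points are larger rises. Most points lie right of 50% and above 0, and dotted lines mark 80% and 50%. AT3G02910 lies below the axis at -203.3% and is not drawn.

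AT1G71000, which encodes a protein with the J domain of DnaJ-type co-chaperones, had the deepest drop. It was near nothing at 0 h, at 0, 0.136 and 1.94 CPM (lowest, median and highest of 9 libraries), and had changed little by 4 h, at 0.436, 0.937 and 2.16 CPM. At 6 h it stood at 3.53, 8.07 and 22.3 CPM and at 12 h at 6.73, 21.2 and 58.3 CPM. By 24 h it was back at 0.201, 1.44 and 5.12 CPM, so the 9 libraries of 12 h lay wholly above those of 0 h and of 24 h. AT2G33830 (DRM2, annotated as dormancy and auxin associated) was second in rank and varied widely among libraries. It went from 4.3, 11.5 and 18.7 CPM at 0 h to 94.7, 449 and 1798 CPM at 12 h, and at 24 h ranged from 9.38 to 1273 CPM, with its highest 24 h values in the Exp3 libraries of C28PLT (1273 CPM) and C35P (895 CPM).

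The third was RVE2, a MYB-like factor of the same family as CCA1 and LHY. It was at 1.65, 3.68 and 11.7 CPM at 0 h and already at 34.7, 70.6 and 155 CPM at 2 h. After a lower stretch, with a median of 42.2 CPM at 4 h and 41.0 CPM at 6 h, it reached 96.3, 126 and 173 CPM at 12 h. It thus had a second high point at 2 h, which the median of the 150 genes did not show. Its relatives on the list of morning clock genes went another way: LHY had its lowest mean of the 6 times at 12 h, at 5.10 log2 units against 7.03 at 24 h, and CCA1 stood at 4.47 at 12 h against 7.00 at 24 h. RVE2 was 1 of 15 tested genes on that list to be highest at 12 h.

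JMJD5 (also JMJ30), a histone demethylase gene of the clock, came late. It held 0.92, 1.66 and 2.99 CPM at 0 h, a median of 5.76 and a highest value of 6.43 CPM at 6 h and 9.46, 17.9 and 26.1 CPM at 12 h, so 43.8% of its rise was made by 6 h, and 12 h was its highest library in 9 of 9 courses. The evening clock gene TOC1 had its highest mean at 6 h (6.92 log2 units, 6.52 at 12 h), as did GI, ELF3 and ELF4. CCR1 rose early, from 67.6, 77.3 and 512 CPM at 0 h to 922, 1402 and 1981 CPM at 6 h and 1272, 1628 and 1808 CPM at 12 h, and it was down to 469, 583 and 876 CPM at 24 h. Its value of 512 CPM at 0 h is that of the C28P library of Exp1, and the other 8 ranged from 67.6 to 147 CPM. GRP7, the close relative with which CCR1 is usually studied, missed the membership at rank 156 with a drop of 0.535 (named after its value was seen). RS40 rose from a median of 9.03 CPM at 0 h to 83.0 at 6 h and 89.1 CPM at 12 h.

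**Figure D3:**
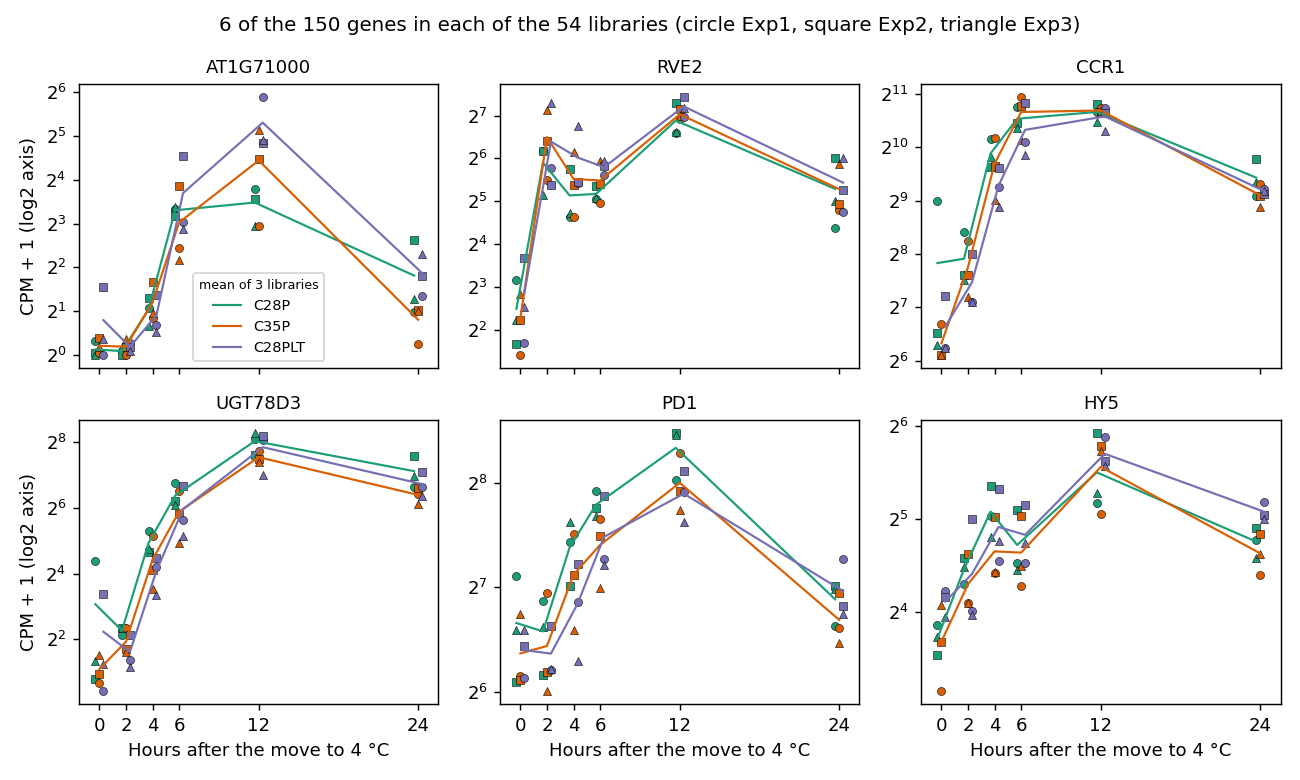
CPM + 1 on a log2 axis (y axis) against hours after the move to 4 °C (x axis) for 6 genes in all 54 libraries. Lines join the means of 3 libraries, colours are conditions, circles Exp1, squares Exp2 and triangles Exp3. AT1G71000 rises between 4 and 12 h from almost 0, RVE2 has high points at 2 and 12 h, CCR1 is near its 12 h level at 6 h, and the C28P 0 h circle stands above the rest for CCR1 (512 CPM) and UGT78D3 (19.9 CPM).

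Promoters were searched because genes that are high at one time of day often share a motif. Each window ran from 250 bases before to 50 bases after the transcription start in RefSeq's annotation of the assembly TAIR10.1, and both strands were read. The evening element AAAATATCT stood in 19 of 150 windows (12.7%), against 2.8% of 27443 windows of all genes and 3.1% of those of tested genes. Sequences around it are shown for 7 of the 19 genes, as examples picked from those described in the text after their values were seen, with the evening element in capitals. They read 5′ to 3′ along the strand of the gene, so a site on the other strand appears as AGATATTTT.
AT1G71000 (chr1:26770260-26770365, minus strand): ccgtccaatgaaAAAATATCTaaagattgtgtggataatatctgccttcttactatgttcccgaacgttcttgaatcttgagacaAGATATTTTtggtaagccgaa
AT4G16146 (chr4:9144673-9144705, minus strand): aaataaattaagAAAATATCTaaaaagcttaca
CCR1 (chr4:18275208-18275240, minus strand): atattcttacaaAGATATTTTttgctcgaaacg
GPT2 (chr1:22824320-22824352, plus strand): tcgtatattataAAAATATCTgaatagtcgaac
UGT78D3 (chr5:5605098-5605130, minus strand): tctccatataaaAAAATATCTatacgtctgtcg
RHL41 (chr5:24102649-24102681, plus strand): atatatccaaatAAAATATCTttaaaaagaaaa
MT2A (chr3:2890610-2890652, minus strand): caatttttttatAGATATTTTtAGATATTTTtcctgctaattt
In AT1G71000 the 2 sites lay 176 and 103 bases before the start, 1 on each strand, and MT2A had 2 sites next to each other at 66 and 56 bases before the start. JMJD5 also had 2, both just after the start.

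The shorter core AATATCT, which every evening element holds, was in 30.0% of the 150 windows and 11.5% of all. ACGTG, the core of the element bound by abscisic acid factors (ABRE), was in 39.3% against 26.7%, and the CCA1 binding site AAAAATCT in 12.7% against 7.9%. Fewer windows than in all genes held the telo-box AAACCCTA (1.3% against 6.2%) and the site II element TGGGCC (10.0% against 15.5%), both known from genes of the ribosome. The element of the CBF factors, CCGAC, was in 18.7% against 15.0%, the G-box CACGTG in 8.0% against 7.7% and the W-box core TTGAC in 50.7% against 50.5%. A match is a run of letters and not a bound site. The 19 genes with an evening element had a median rise of 2.57 log2 units, of which 87.1% was made by 6 h, and the other 131 a median rise of 1.88 with 78.5% by 6 h. The rise helped to choose both sets, and the difference was not tested.

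**Figure D4:**
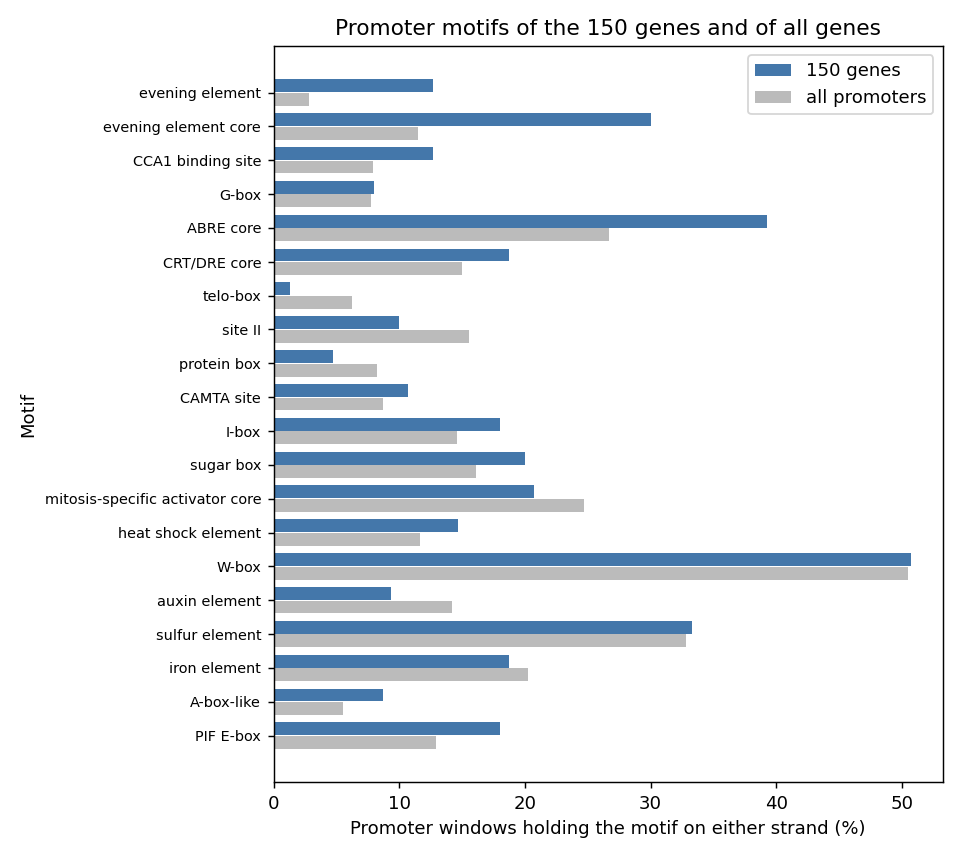
Share of promoter windows that hold each of 20 motifs on either strand (x axis, %), for the 150 genes in blue and for all 27443 promoters in grey. The evening element (12.7% against 2.8%) and its core (30.0% against 11.5%) stand furthest above the grey bars in proportion, and the telo-box (1.3% against 6.2%) furthest below.

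The genes were grouped by role after the members were known: 93 fell into 17 groups and 57 into none. The groups are a way of ordering the description. Levels are CPM without a correction for length, and are compared within a gene only.

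The route from the shikimate pathway to phenylalanine was represented by 5 genes. CM1 encodes chorismate mutase, and PD1 (also ADT3), ADT4, ADT5 and ADT6 encode arogenate dehydratases, which make phenylalanine. PD1 went from 67.0, 85.3 and 137 CPM at 0 h to 126, 200 and 241 CPM at 6 h and 196, 259 and 356 CPM at 12 h, and was at 87.6, 112 and 153 CPM at 24 h. All 9 libraries of 12 h lay above all 9 of 0 h and of 24 h. CM1 behaved alike, with 31.2, 42.1 and 75.1 CPM at 0 h, 72.8, 134 and 166 CPM at 12 h and 48.8, 60.8 and 72.4 CPM at 24 h, but its 0 h and 12 h ranges overlapped slightly. ADT6 first went down, to 15.8, 18.9 and 24.8 CPM at 2 h from 22.6, 35.8 and 45.2 CPM at 0 h, and stood at 46.7, 55.2 and 69.9 CPM at 12 h. ADT4 likewise had a median of 85.6 CPM at 0 h, 66.0 at 2 h and 142 at 12 h. The group kept little at 24 h, with a median of 24.1% of its rise left, against 57.5% for the 150 genes.

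The enzymes that attach sugars to such products gave larger rises. The 9 genes for UDP-glycosyltransferases had a median rise of 3.57 log2 units and 75.3% of it was left at 24 h. UGT78D3, a flavonol arabinosyltransferase, had the largest rise of all 150 genes at 6.12 log2 units, from 0.342, 1.38 and 19.9 CPM at 0 h to 128, 212 and 311 CPM at 12 h. UGT78D2, a glucosyltransferase for flavonols and anthocyanins, rose from 50.5, 82.1 and 174 CPM to 368, 607 and 735 CPM. The 2 genes are neighbours on chromosome 5 and share 82.6% of their coding bases, so reads may have been split between them. UGT84A1, UGT84A2 and UGT84A3 form esters of hydroxycinnamic and sinapic acids. UGT84A1 was late, at 0.758, 2.17 and 8.06 CPM at 0 h, 4.23, 13.6 and 28.7 CPM at 6 h and 24.3, 88.1 and 106 CPM at 12 h. AT1G06000, a flavonol rhamnosyltransferase gene, had medians of 108 CPM at 0 h, 292 at 6 h and 649 at 12 h. AT2G22590, annotated as a glycosyltransferase without a stated substrate, rose by 5.52 log2 units, from a median of 1.18 to 143 CPM. DOGT1, which glucosylates brassinosteroids and the fungal toxin deoxynivalenol, was the slowest of the group, with 14.7% of its rise made by 6 h.

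Factors that act on this pathway were also members. MYB12 and MYB111 switch on the flavonol genes, MYB90 (PAP2) the anthocyanin genes, and MYB32 is a repressor-type relative. MYB111 rose early, from 2.59, 3.51 and 33.2 CPM at 0 h to 41.0, 69.8 and 102 CPM at 6 h and 54.9, 84.3 and 108 CPM at 12 h. MYB12 rose later, from 0.0689, 0.468 and 2.28 CPM at 0 h to 1.28, 3.39 and 5.74 CPM at 6 h and 4.75, 10.8 and 16.5 CPM at 12 h. MYB90 made 30.1% of its rise by 6 h and had medians of 0.512 CPM at 0 h, 1.69 at 6 h and 10.8 CPM at 12 h. HY5, the bZIP factor of light signalling, had medians of 13.6, 22.1 and 48.5 CPM at 0, 6 and 12 h and was highest at 12 h in 9 of 9 courses. RUP1, a repressor in the UV-B pathway that HY5 serves, had medians of 5.25, 17.7 and 31.1 CPM at those times. The lignin-branch genes ATCAD4 and LysoPL2 (caffeoyl shikimate esterase) rose by 1.35 and 0.77 log2 units.

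On a list of 28 tested flavonoid and anthocyanin genes, 3 were members (UGT78D2, MYB12 and MYB111), 9 were highest at 12 h and 12 at 24 h. Over all tested genes, 0.72% were members, 2095 of 20720 were highest at 12 h and 34.9% at 24 h. Entry enzymes of the list such as PAL1, PAL2 and C4H were also highest at 12 h but came down too little to be members. C4H, for example, stood at 7.71, 9.12 and 8.86 log2 units at 0, 12 and 24 h. The anthocyanin genes DFR, LDOX and UF3GT were highest at 24 h, with DFR at 3.72 log2 units at 12 h and 4.80 at 24 h.

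**Figure D5:**
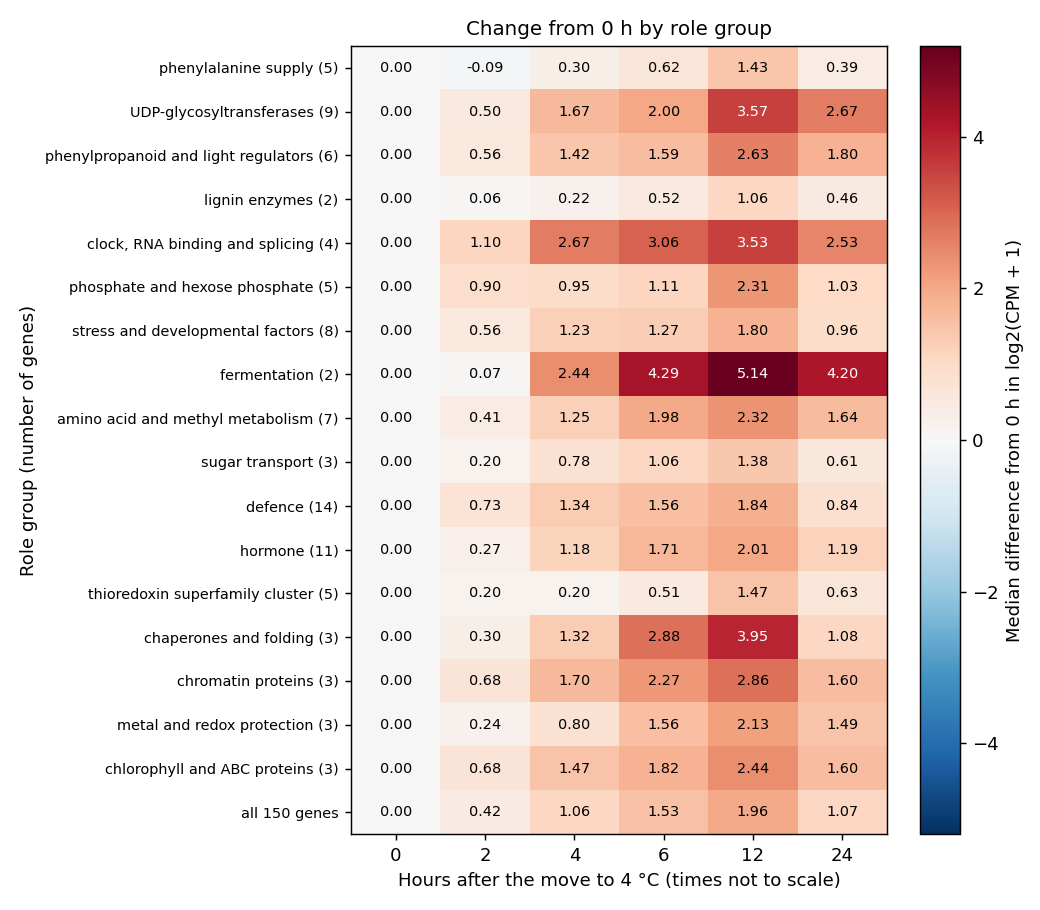
Median difference from 0 h in log2(CPM + 1) at each time (columns, hours after the move to 4 °C) for the 17 role groups and all 150 genes (rows, number of genes in brackets). Red is above 0 h and blue below. The fermentation pair reaches 5.14 and the glycosyltransferases 3.57 at 12 h, phenylalanine supply is at -0.09 at 2 h and 1.43 at 12 h, and the chaperone row drops from 3.95 at 12 h to 1.08 at 24 h.

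Among the members were 2 genes of ethanol fermentation. AT4G33070 (PDC1), which encodes pyruvate decarboxylase, was at 0, 0.273 and 2.91 CPM at 0 h, 2.63, 7.61 and 13.5 CPM at 4 h and 19.8, 41.5 and 72.3 CPM at 12 h. ADH1, alcohol dehydrogenase, went from 1.55, 2.76 and 11.2 CPM at 0 h over 16.2, 25.8 and 40.6 CPM at 4 h to 153, 199 and 339 CPM at 12 h. At 2 h neither had moved far, with medians of 0.564 CPM for AT4G33070 and 3.96 CPM for ADH1. ADH1 kept 87.6% of its rise at 24 h.

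For phosphate and sugar phosphates, GPT2, the glucose 6-phosphate translocator of the plastid, had medians of 1.84 CPM at 0 h, 23.8 at 2 h, 60.3 at 6 h and 73.4 CPM at 12 h. PHT1;4, a phosphate importer of the plasma membrane, rose from 0.684, 2.21 and 11.3 CPM at 0 h to a median of 18.2 and a highest value of 29.7 CPM at 12 h, with every 12 h library above every 0 h one. PAP17, an acid phosphatase, went from 25.5, 38.7 and 46.7 CPM to 56.9, 107 and 220 CPM, also without overlap. Its mean was higher at 2 h than at 6 h in both C35P and C28PLT. In C35P it was 95.7 CPM at 2 h (SD 83), 46.9 at 6 h and 110 at 12 h. In C28PLT it was 53.8, 42.3 and 85.5 CPM. SRG3 (GDPD1, a glycerophosphodiester phosphodiesterase) and PHT3;3 (a mitochondrial phosphate carrier) rose by 1.86 and 2.31 log2 units. On a list of 20 tested phosphate genes 3 were members and 7 were highest at 12 h. SPX1, the phosphate sensor gene of the list, was highest at 2 h (5.87 log2 units, 4.32 at 12 h).

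Stress and developmental factors included the zinc finger genes ZAT6 and RHL41 (ZAT12), both known from cold and oxidative stress. ZAT6 had medians of 17.7 CPM at 0 h, 226 at 6 h and 254 CPM at 12 h, with a 12 h range of 85.1 to 503 CPM. RHL41 had 39.6 CPM at 0 h, 60.4 at 6 h and 125 CPM at 12 h, and its ranges at 0 h (18.2 to 121 CPM) and 12 h (64.5 to 190 CPM) overlapped. Its rise was not steady. In C35P the mean was 60.7 CPM at 2 h, 39.5 at 4 h and 54.8 at 6 h. AGL20 (SOC1), which promotes flowering, rose from 33.4, 54.5 and 66.7 CPM to 151, 266 and 387 CPM, and GBF6 (bZIP11), a factor controlled by sucrose, from 15.2, 22.8 and 35.5 CPM to 52.7, 83.8 and 106 CPM. In both, the 0 h and 12 h libraries did not overlap. None of the 17 listed CBF and DREB factors was a member and 11 of them were highest at 2 h. Of 19 tested COR and LEA genes, the cold-induced protective proteins, 0 were members, 7 were highest at 12 h and 10 at 24 h.

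Hormone genes came from several pathways. GA2OX6, which inactivates gibberellin, had medians of 1.34 CPM at 0 h and 7.84 CPM at 12 h, and GID1B, a gibberellin receptor, of 4.65 and 22.1 CPM. CYP707A2, which breaks down abscisic acid, rose from a median of 2.62 to 14.2 CPM, and EFE (ACO4), the last enzyme of ethylene synthesis, from 98.4 to 221 CPM. MAPKKK18, a kinase of abscisic acid signalling, was at 0.747, 1.21 and 2.88 CPM at 0 h, 0.859, 1.78 and 3.47 CPM at 6 h and 5.04, 8.96 and 19.0 CPM at 12 h, so 9.5% of its rise was made by 6 h. The small auxin gene AT3G12830 (SAUR72) was also late, with a median of 15.4 CPM at 6 h and 37.8 CPM at 12 h against 18.4 CPM at 0 h. HVA22E, known as responsive to abscisic acid and cold, rose by 3.20 log2 units.

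Defence was the largest role group with 14 genes and a median rise of 1.84 log2 units, of which 49.6% was left at 24 h. NIMIN-2, whose protein binds the salicylate receptor NPR1, had a median of 7.76 and a highest value of 16.8 CPM at 0 h, a median of 34.2 and a highest value of 57.3 CPM at 12 h, and ran from 7.11 to 15.2 CPM at 24 h. The 12 h range lay above both others, though its 12 h library was the highest in only 5 of 9 courses, since 6 h reached 12.6 to 68.6 CPM. BG3, a glucanase of the pathogenesis-related kind, rose from a median of 0.470 to 11.1 CPM and LURP1 from 108 to 557 CPM. IGMT2 and IGMT3, methyltransferases of indole glucosinolates, are neighbours with 86.3% of coding bases in common, and rose by 2.81 and 2.85 log2 units. On the list of 29 tested salicylate and defence genes 0 were members and 0 were highest at 12 h, and 12 were highest at 2 h.

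Among the rest, 7 genes of amino acid and methyl metabolism had made 89.1% of their rise by 6 h as a median. GSR 1 (GLN1;1), a cytosolic glutamine synthetase, rose from 8.92, 26.7 and 86.2 CPM to 310, 375 and 647 CPM, and SAHH2, which clears the by-product of methylation, from 316, 534 and 1164 CPM to 1884, 2980 and 3720 CPM. The HMG-box chromatin proteins HMGB2 and HMGB3 are neighbours with 82.4% of coding bases shared. They rose by 2.86 and 2.13 log2 units, and AT2G28720, annotated as a histone, by 3.06. ACD32.1, with the alpha-crystallin domain of small heat shock proteins, had medians of 43.4, 177 and 73.6 CPM at 0, 12 and 24 h, without overlap between 12 h and either of the others. SWEET12, a sucrose exporter of the phloem, went from a median of 12.1 to 30.1 CPM and LHT1, an amino acid importer, from 14.4 to 55.8 CPM. MT2A, a metallothionein, ranged from 545 to 1613 CPM at 0 h and from 2160 to 6973 CPM at 12 h. GPX6, a glutathione peroxidase gene, rose by 3.32 log2 units, and NYC1, which starts the breakdown of chlorophyll b, by 2.18.

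A block of 5 neighbouring genes on chromosome 4, AT4G15660, AT4G15670, AT4G15680, AT4G15690 and AT4G15700, all annotated to the thioredoxin superfamily, was complete among the members. Their rises ran from 0.65 to 1.65 log2 units. Their coding sequences, each of 309 bases, were 88.3 to 93.2% identical, so reads may have been shared and the block is not 5 independent observations. In all, 17 members lay in 7 groups with another member within 20000 bases. Genes with a single exon made up 30.0% of the members (45 of 150) and 18.3% of tested genes.

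Names without a described function were also high in the ranking. AT2G38465, an uncharacterised protein gene, was at 0.128, 0.608 and 2.02 CPM at 0 h and 18.4, 28.7 and 39.6 CPM at 12 h. AT5G18130, likewise uncharacterised, went from a median of 3.65 to 20.9 CPM, and AT1G27020 from 7.13 to 44.1 CPM. AT4G16146, related by annotation to a cAMP-regulated phosphoprotein, was at its 12 h level by 6 h, with medians of 1.57, 106 and 104 CPM at 0, 6 and 12 h.

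The comparison of a second with a first cold is C28PLT against C35P, and it asks whether the earlier cold left a trace in the later response. By the days given, C28PLT plants were 38 days old at 0 h and C35P plants 35 days. The earlier cold and this difference in age cannot be told apart. By edgeR's quasi-likelihood test over 20720 genes, with Benjamini-Hochberg adjusted p under 0.05, 0 of the 150 genes were called at any of the 6 times, in either direction. DESeq2 also called 0. Of all tested genes, 0.00483% were called at 0 h (1 gene, lower) and 0% at each of the other times, so the members' count is at the background. With a background this low, 0 calls among 150 genes cannot show that the conditions were alike. In simulated data for this comparison at 12 h, the test found 34 of 100 genes changed 2-fold and 82 of 100 changed 4-fold, with 5 false calls. The real libraries gave few low p-values at 12 h (0.994% of tested genes under an unadjusted 0.05). The test may therefore find fewer changed genes in them than in the simulated data. At an unadjusted p under 0.05, 9 members (6.0%) passed at 0 h, against 3.63% of all tested genes, and 19 members (12.7%) at 24 h, against 3.23%. In between, 0 passed at 2 h, 1 at 4 h, 0 at 6 h and 0 at 12 h, where 0.849%, 0.888%, 0.55% and 0.994% of all tested genes did. Where nothing differs, a calibrated test passes a share of 0.05, and all these shares of tested genes lay below it. The p-values thus ran high in these data, and the members' 6.0% at 0 h is near that nominal share. These unadjusted counts come from the fit without a term for experiment. The count at 24 h is given with all libraries of both groups only, and these were uneven. In C35P at 24 h, Exp1 correlated with Exp2 at 0.9699 and with Exp3 at 0.9677, and Exp2 with Exp3 at 0.9902. In C28PLT at 24 h the lowest correlation was 0.9618, between Exp2 and Exp3. The median rise from 0 to 12 h was 2.09 log2 units in C35P and 2.05 in C28PLT. The difference of the 12 h minus 0 h changes was called for 0 members by either tool (0% of tested genes), and 3 members (2.0%) had an unadjusted p under 0.05, against 1.39% of tested genes.

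At 24 h most members had a higher value in C28PLT than in C35P, though none passed the test. The log2 difference between C28PLT and C35P had a median of 0.37 over the 150 genes, and 124 of them were higher in C28PLT, while over all tested genes the median was -0.02 and 48.1% were higher. The shift was uneven among experiments. With CPM by library total, the mean of log2(CPM + 1) over the members differed by 0.52 in Exp1, 0.05 in Exp2 and 0.09 in Exp3. On that scale the C35P library of Exp1 was low, at 4.35, while the other 5 libraries of these groups ran from 4.83 to 4.98. The median of 0.37 also used edgeR's TMM factors for library size, which these values do not. From Exp1 to Exp3 the factors were 0.8901, 1.207 and 0.8342 in C28PLT and 1.205, 1.018 and 1.1 in C35P. They move the difference up in Exp1 and Exp3 and down in Exp2. Leaving out 1 library or experiment at a time moved the median between 0.23 and 0.66. The lowest adjusted p of a member at 24 h was 0.818 (edgeR), shared by several genes. RUP1 was at 32.0, 21.2 and 26.9 CPM in the C28PLT libraries of Exp1 to Exp3 and at 10.8, 20.0 and 16.8 CPM in those of C35P. GBF6 was at 66.3, 42.2 and 71.0 CPM against 28.7, 44.2 and 32.6 CPM. AT1G71000 was at 1.53, 2.47 and 3.98 CPM against 0.201, 1.04 and 1.02 CPM. The groups overlapped in GBF6 and did not in RUP1 and AT1G71000, which were picked for this contrast after their values were seen. The difference of the 24 h minus 12 h changes had a median of 0.35 over the members (109 higher), with 0 members called by edgeR or DESeq2 and 0% of tested genes called. Over all tested genes its median was -0.0006 and 50% were higher. The members share the same libraries, so such counts of genes are not counts of independent observations. At an unadjusted p under 0.05 it held 3 members (2.0%), against 1.84% of tested genes.

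The comparison of C35P with C28P asks how a first cold differs between 35-day and 28-day plants. By edgeR 0 members were called at any time. The share of tested genes called was 0.0241% at 0 h (5 genes, all lower in C35P) and 0% at each later time. At an unadjusted p under 0.05, 26 members (17.3%) passed at 0 h, against 2.2% of all tested genes. Without the C28P 0 h library of Exp1 it was 1 member (0.667%), against 1.37%. At the later times 5 members passed at 2 h, 4 at 4 h, 5 at 6 h, 5 at 12 h and 8 at 24 h, which is 3.33%, 2.67%, 3.33%, 3.33% and 5.33% of them. The shares of all tested genes at these times were 1.57%, 1.21%, 2.55%, 1.06% and 1.64%. They too lay below the share of 0.05 that a calibrated test passes where nothing differs. Of the 5 genes called at 0 h, FKF1 and PRR5 are evening clock genes and LZF1 is a light signalling factor. On the list of 19 tested evening and night clock genes these 2 were lower and 0 were higher, with a median log2 difference of -0.17. Without the C28P 0 h library of Exp1, 0 of all tested genes were called at 0 h, PRR5 had a log2 difference of 0.21 and FKF1 of -0.89 (adjusted p = 1.0 for both by edgeR), and the median of the list was 0.06. DESeq2 called 5 members at 0 h, all lower in C35P: AT4G16146, GPT2, UGT78D3, MYB111 and AT2G21130 (a cyclophilin gene). It called 0 members at the other times.

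These 5 members rest on the library that stood apart, and without it DESeq2 called 0. GPT2 was at 60.4, 2.61 and 0.854 CPM in the C28P 0 h libraries of Exp1 to Exp3 and at 0.826, 3.42 and 1.84 CPM in those of C35P. MYB111 was at 33.2, 3.85 and 3.91 CPM against 3.51, 2.59 and 3.14 CPM, and AT4G16146 at 25.8, 1.57 and 1.07 CPM against 0.999, 1.76 and 2.01 CPM. UGT78D3 was at 19.9, 0.736 and 1.53 CPM against 0.585, 0.928 and 1.91 CPM, and AT2G21130 at 17.7, 1.54 and 1.21 CPM against 1.27, 1.73 and 2.56 CPM. In each the Exp1 library of C28P was far above the other 5. Over the 150 genes the median log2 difference at 0 h was -0.22, with 106 lower in C35P (over all tested genes the median was -0.01). Without that library it was -0.01, with 73 of 150 higher. The larger rise from 0 to 12 h in C35P than in C28P, with a median difference of 0.31 and 112 of 150 genes on that side, likewise went to 0.04 and 80 genes without it. Over all tested genes, with that library, the median difference of the rise was -0.018 and 47.7% were on that side. That difference was called for 0 members by either tool and for 0% of tested genes. At an unadjusted p under 0.05 it held 12 members (8.0%), against 1.52% of tested genes, and without that library 1 member (0.667%), against 1.0%. The difference of the 24 h minus 12 h changes was called for 0 members by either tool (0% of tested genes), with 2 members (1.33%) at an unadjusted p under 0.05, against 0.526% of tested genes. What set this library apart was not tested.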

How the data were processed

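The authors deposited a table of raw read counts per gene. Per the submitters' processing notes it rests on Trimmomatic (version not stated), STAR 2.7.9a, DESeq2 (version not stated) and the build TAIR10; the strand setting, the annotation version and the handling of multi-mapping reads are unstated there. Values of near-identical copies, overlapping and antisense genes are therefore uncertain. All 36632 gene IDs matched RefSeq's TAIR10.1 table, which gave names, promoter positions and sequences. The files hold no coordinates.

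CPM used the column total and a pseudocount of 1. Counts were tested with edgeR 4.0.16 (R 4.3.3; filterByExpr with a minimum count of 10, TMM, robust quasi-likelihood fit, 18 group coefficients, 54 libraries, 36 residual degrees of freedom, Benjamini-Hochberg), after tests on simulated data. DESeq2 1.42.0 was an alternative. Molecules carry no identifiers, and what total counts limit is the counting error alone. The biological coefficient of variation was 0.346. Same-numbered libraries come from the same independent experiment, per the labels. Their deviations from group means correlated at a median of 0.159, against -0.07 for different numbers. A replicate block was therefore tried.

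The text names the 20 top-ranked members, members on gene lists, those with the lowest p between conditions and the genes at the edge of the rule. Members named for their role were chosen after their values were seen. Members, lists and the tests were chosen with earlier results of these data known.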

Additional observations from a re-analysis of the deposited data

How the results depend on the processing

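In 263 of 266 refits of the 16 comparisons between conditions, 0 members were called, as in the text. The exceptions all concern C35P against C28P at 0 h: DESeq2 called 5 (0 without the C28P library of Exp1, a fit added after seeing the data), and leaving out 1 library called 0 to 6, with 6 without the C28P library of Exp2 and 4 without that of Exp3. The replicate block called 0 members in each comparison and changed no call. The median difference at 24 h between C28PLT and C35P was 0.23 to 0.66 when libraries or experiments were left out, the highest without Exp2. The rule applied in C28P alone kept 92 of the 150 members and in C28PLT alone 71, against 113 in C35P alone; the other settings of the rule kept 115 to 148. With a pseudocount of 5 the median rise was 1.44. In a promoter window of 100 bases before the start the evening element was in 3.3% of members and 0.9% of all genes. Depth limits the genes near 0 CPM at 0 h, whose rises depend on the pseudocount.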
